A study of Mus musculus with 12 samples.

Results

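The effect of the Adam17 knockdown in the absence of cytokines was read from 6 of the 12 libraries of the series, all of unstimulated cells. They were chosen by their labels alone, and no measured value entered the choice. MC38CEA is a mouse colon adenocarcinoma line that carries human carcinoembryonic antigen. Adam17-KD cells (3 libraries, the label gives the genotype as ADAM17-knockdown) had been electroporated with Cas9 mRNA and then with guide RNAs against Adam17. Control cells (3 libraries) had been treated in the same way with a guide RNA against EGFP. Both kinds of cells therefore share the line, the antigen and the passage through Cas9, and neither received a cytokine. The labels do not say whether a sequenced culture was a whole edited population or a clone. They do not say either whether the 3 replicates were edited separately. If they were not, the p-values measure only the spread between cultures. The other 6 libraries, of the same cells after 6 h with IL1β and IFNγ at 10 ng/ml each, are used only where the knockdown effects in the 2 conditions are compared.

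ADAM17 is a membrane-anchored metalloprotease that cuts the extracellular part of many surface proteins and releases it from the cell. Its substrates include TNF and its receptors, the IL6 receptor, adhesion molecules and several ligands of the EGF receptor family, which reach their receptor in soluble form. The EGF receptor drives the RAS-ERK pathway, whose activity is mirrored by short-lived transcripts of feedback phosphatases and immediate early genes. Interferons act through JAK kinases and STAT factors. These bind the interferon-stimulated response element or the gamma-activated site in promoters of antiviral genes.

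The count table named 43269 genes, and 14339 of them had enough counts to be tested. Total counts were 17031942 to 22127761 in Adam17-KD libraries and 18535667 to 25443307 in control libraries. Mitochondrial genes took 1.54 to 1.92% of the counts in Adam17-KD libraries and 1.24 to 1.57% in control libraries. Along the first principal component (43.6% of the variance), Adam17-KD replicates 1 and 2 scored 30.8 and 31.9. Adam17-KD replicate 3, at -14.3, lay among the controls at -12.1, -5.8 and -30.5, so this library stood apart from its group. Along the second component (22.3% of the variance) control replicate 2 stood apart, at 35.7, while the other libraries scored -15.2 to 0.47. The labelled cell type was checked against 26 epithelial markers. Only 2 of them (Lgals4 and Esrp1) could be tested, and 22 had at most 20 counts over the 6 libraries. Epcam had 0 counts in all Adam17-KD libraries and 1 in the controls, Cdh1 had 6 and 2, Krt8 had 5 and 5, and Krt18 had 0 and 1. The defining markers of an intestinal epithelium were thus at or near 0 in both groups. The 18 mesenchymal markers summed to 74093 to 101645 counts in Adam17-KD libraries and 68326 to 115576 in control libraries. Vim alone gave most of this sum, with 47051 to 69892 counts in Adam17-KD libraries and 52970 to 89160 in control libraries. Of the 18, 7 had at most 20 counts over the 6 libraries. Endothelial markers summed to 9 to 28 counts in Adam17-KD libraries and 17 to 25 in control libraries, and none of the 10 could be tested. The 17 leukocyte markers summed to 333 to 620 counts in Adam17-KD libraries and 330 to 811 in control libraries. Most of these counts came from Cd14, and Ptprc, which marks all leukocytes, had 2 and 4 counts in all. Of the 3 leukocyte markers that could be tested (Cd14, Itgam and Cd68) none was called.

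Levels are given in CPM, that is counts relative to the size of the library, with sizes adjusted by the TMM method of edgeR, and stand in the order of replicates 1, 2 and 3. Fold changes are log2 of Adam17-KD over control ± SE from a quasi-likelihood model in edgeR with same-numbered replicates as pairs. The SE was derived as the size of the log2 fold change divided by the square root of its F statistic. A gene was called where its p, adjusted by Benjamini and Hochberg over all 14339 genes, was under 0.05. CPM values are not corrected for transcript length and are compared within a gene only.

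Adam17 itself (chr12:21323509-21373632, minus strand, GRCm38) had 52.9, 61.2 and 51.9 CPM in Adam17-KD cells, against 79.99, 95.8 and 98.5 CPM in control cells. All 3 Adam17-KD libraries lay below all 3 controls. The change was -0.72 ± 0.10 on the log2 scale (adjusted p = 0.0022), a level of 0.606 of the control. The transcript level does not measure how much of the protein was left. None of the 12 tested genes nearest to Adam17 by position was called, with log2 fold changes of -0.39 to 0.44 and a lowest adjusted p of 0.1004. Some of them began at chr12:24493207 or beyond and so were not close to it. The gene with 0.44 had a mean of only 1.18 CPM in Adam17-KD and 0.950 CPM in control cells. Adam10, the closest relative of Adam17 among the sheddases, had 39.9, 30.3 and 28.0 CPM in Adam17-KD cells, against 28.7, 34.2 and 30.3 CPM in control cells. Its groups overlapped (0.07 ± 0.14, adjusted p = 0.841), and the sign of its difference turned when replicate 1 of either group was left out (lowest value -0.15). With the pairing kept, both of these fits rest on the other pairs. Rhbdf2, which encodes the ADAM17 partner iRhom2, was not called either (-0.38 ± 0.14, adjusted p = 0.164).

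In all, 440 genes were called, or 3.07% of those tested. Of these, 297 (2.07%) were higher and 143 (0.997%) lower in Adam17-KD cells. These shares are the background for the count of every list below. The rises were the larger changes. Their median was 0.84, and 102 of them reached 2-fold, while the falls had a median of -0.55 and 11 of them reached 2-fold. The median over all tested genes was 0.012. The calls depended on the pairing. Without it 50 genes were called, 45 higher and 5 lower, all of them among the 440. They depended also on replicate 3. The fit without Adam17-KD replicate 3 called 1191 genes and the fit without control replicate 3 called 1228. Leaving out another library, with the pairing kept, gave 210 (without Adam17-KD replicate 1) to 259 (without control replicate 2). In all these fits the partner of the library left out adds nothing to the estimated change. Each of them thus rests on the remaining pairs, and leaving out either library of a pair is nearly the same check.

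**Figure D1:**
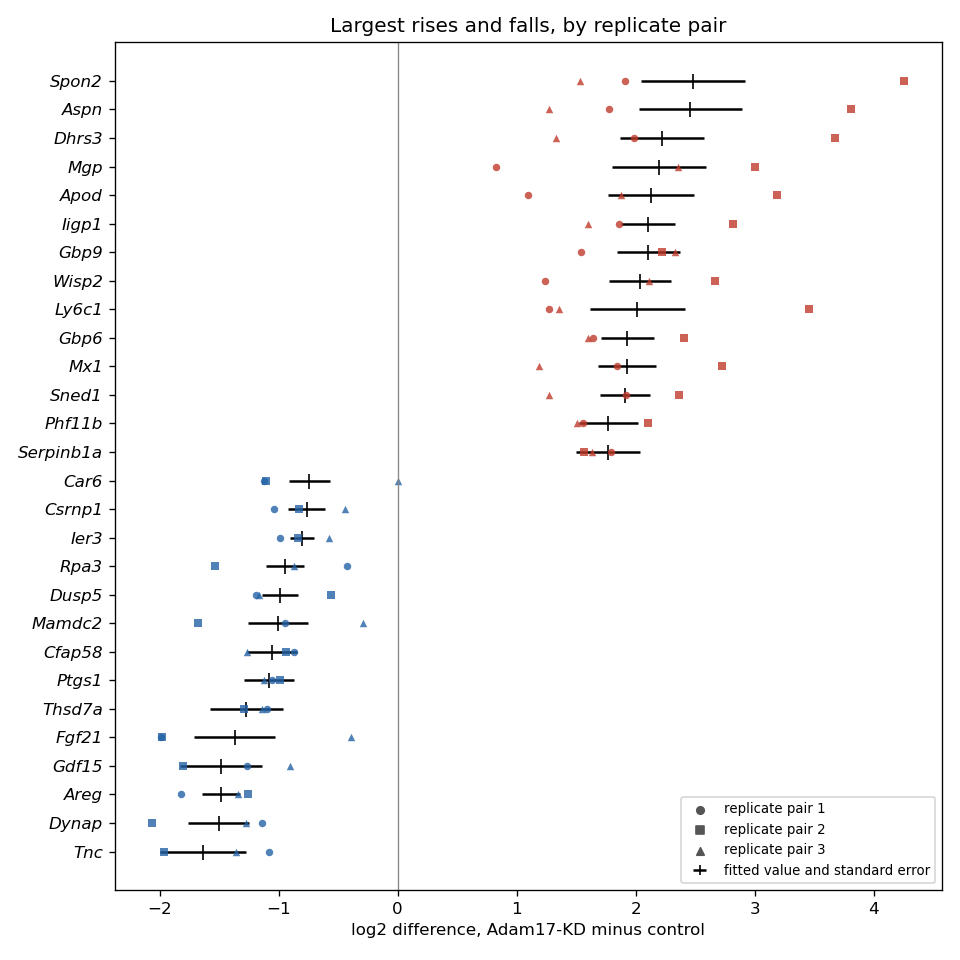
Called genes with the largest rises (14 shown) and the largest falls (14 shown), taken from genes whose groups did not overlap and whose mean count was 20 or more. The horizontal axis is the log2 difference of Adam17-KD minus control, with a circle, square and triangle for replicate pairs 1, 2 and 3 and a black tick with a bar for the fitted value ± SE. The rises run up to 2.48 (Spon2) and the falls down to -1.63 (Tnc).

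The genes of 3 EGF receptor ligands were lower. Of 9 tested genes for ligands and ERBB receptors, 3 fell (33.3%, against 0.997% of all tested genes), 1 rose and 5 were not called. The median was -0.37, and it moved to 0.013 in the fit with neither the pairing nor Adam17-KD replicate 1. Areg encodes amphiregulin, a ligand that ADAM17 releases. Areg (chr5:91139599-91148432) had 6.19, 5.69 and 8.52 CPM in Adam17-KD cells, against 22.04, 13.7 and 21.8 CPM in control cells. The groups were well apart, and the change of -1.49 ± 0.16 (adjusted p = 0.000382) was the third largest fall of the comparison by the rule used for named genes. Ereg, the epiregulin gene next to Areg on chromosome 5, had 18.3, 13.7 and 15.2 CPM in Adam17-KD cells, against 26.4, 20.5 and 31.6 CPM in control cells. Its groups did not overlap (-0.73 ± 0.14, adjusted p = 0.0137). Hbegf encodes heparin-binding EGF-like growth factor. It had 17.6, 15.2 and 22.3 CPM in Adam17-KD cells, against 31.3, 16.5 and 41.1 CPM in control cells. Each pair fell but the groups overlapped, since control replicate 2 was as low as the Adam17-KD cells (-0.63 ± 0.15, adjusted p = 0.0419). Erbb3, a receptor partner without strong kinase activity of its own, moved the other way, with 23.04, 26.3 and 22.7 CPM in Adam17-KD cells, against 10.0, 16.1 and 17.2 CPM in control cells. This rise was 0.76 ± 0.16 (adjusted p = 0.0185). Erbb2 was not called (0.14 ± 0.11, adjusted p = 0.498). Egfr itself had only 10 counts in all Adam17-KD libraries and 5 in all control libraries, and Tgfa 0 and 2, so neither was tested.

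Among 38 tested ERK feedback and immediate early genes, 5 fell (0.997% of all tested genes did) and none rose (median -0.17, with pair medians of -0.20, -0.14 and -0.23). In 7 of the 38 all Adam17-KD libraries lay below all controls (6.63% of all tested genes), and 18 were lower in all 3 pairs (20.1% of all tested genes). Dusp5, a nuclear phosphatase that inactivates ERK, had 11.7, 11.5 and 12.7 CPM in Adam17-KD cells, against 26.8, 16.98 and 28.5 CPM in control cells. The Adam17-KD libraries were nearly alike and all below the controls (-0.99 ± 0.15, adjusted p = 0.00343). Ier3, an immediate early gene, had 112, 116 and 150 CPM in Adam17-KD cells, against 223, 208 and 224 CPM in control cells (-0.80 ± 0.10, adjusted p = 0.000997). Plaur, the urokinase receptor gene, fell by 0.50 and Phlda1 by 0.54, and Myc had 226, 220 and 235 CPM in Adam17-KD cells, against 330, 303 and 291 CPM in control cells (-0.44 ± 0.10, adjusted p = 0.0282). The other 33 genes of the list were not called, the phosphatase genes Dusp4 and Dusp6 among them. Without the pairing, the adjusted p was 0.161 for Ereg, 0.461 for Hbegf and 0.0644 for Dusp5, while that of Areg was 0.028 and that of Ier3 0.0306.

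**Figure D2:**
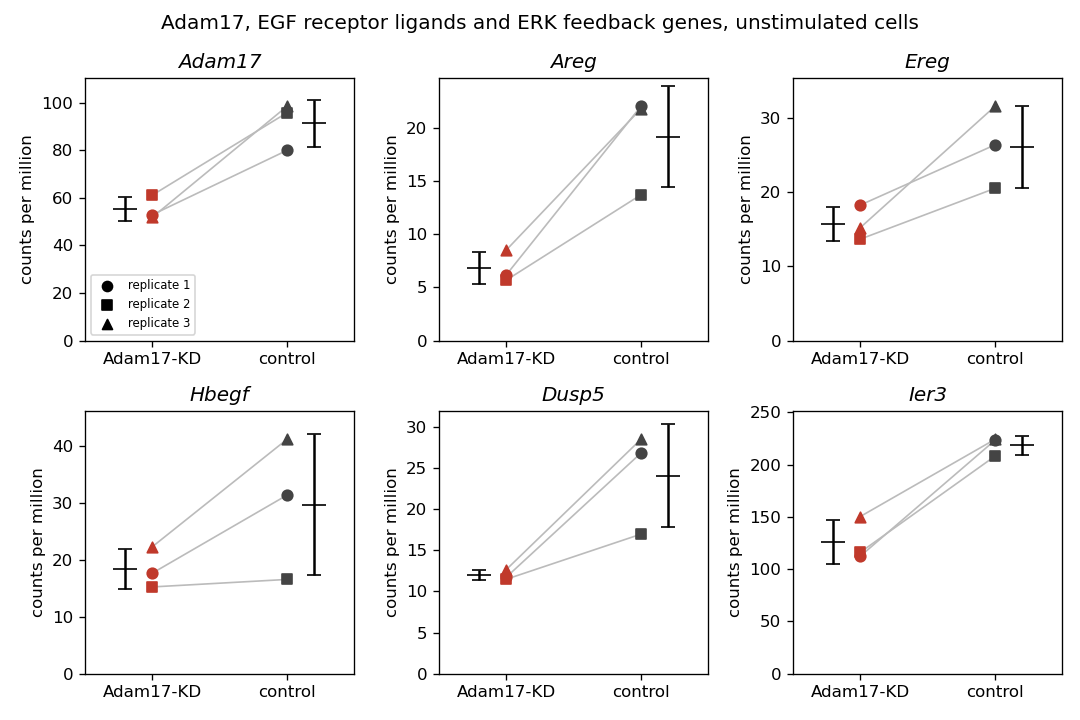
CPM of Adam17, of the EGF receptor ligand genes Areg, Ereg and Hbegf and of Dusp5 and Ier3 in each library, Adam17-KD left and control right. Lines join same-numbered replicates (circle, square and triangle for 1, 2 and 3) and bars are mean ± SD. In all 6 genes every Adam17-KD library lies below its own control, and only in Hbegf do the groups overlap.

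Interferon-stimulated genes were the most frequent of the listed groups among the rises. The 8 lists of such genes (immunity-related GTPases, guanylate-binding proteins, IFIT, IFITM, OAS and MX genes, nucleic acid sensors, ISG15 conjugation, interferon-inducible PARPs, TRIM ligases and others) held 150 genes, of which 121 were tested. Of these, 78 rose (64.5%, against 2.07% of all tested genes), none fell and 43 were not called. These 78 were 26.3% of all genes called higher. The lists were written with earlier results of these data known, so these shares are a description and not an independent test. Cxcl10, an interferon target that was called lower, stands in the chemokine list and is not counted here. The median over the 121 was 0.78, and 116 of the differences were positive. The pair medians were 0.70, 0.94 and 0.60, against 0.025, -0.00079 and 0.00088 over all genes, so each pair showed the shift. In 91 of the 121 genes all Adam17-KD libraries lay above all controls, which held for 9.07% of all tested genes, and 107 were higher in all 3 pairs (22.4% of all tested genes). Without the pairing 28 of the 78 were called, where 45 of all 14339 tested genes were called higher. Without Adam17-KD replicate 2, whose pair had the highest median, 55 were called with the pairing kept. That fit called 153 of 14672 tested genes higher.

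The immunity-related GTPases, which act on the membranes around intracellular pathogens, rose in 7 of 13 tested genes (median 1.10). Iigp1 (chr18:60376027-60392634) had 10.6, 17.9 and 10.5 CPM in Adam17-KD cells, against 2.84, 2.45 and 3.40 CPM in control cells. Every Adam17-KD library was more than 3 times its own control (2.11 ± 0.23, adjusted p = 0.000382). Igtp had 46.5, 58.9 and 37.9 CPM in Adam17-KD cells, against 22.9, 18.8 and 21.9 CPM in control cells (1.15 ± 0.15, adjusted p = 0.00105). Irgm2 overlaps Igtp in the annotation, and the counting of shared reads is not given, so their values are not independent. Of 7 tested guanylate-binding proteins, which attack the same membranes, 6 rose (median 1.19). Gbp3 had 37.2, 51.1 and 41.7 CPM in Adam17-KD cells, against 17.6, 19.8 and 19.2 CPM in control cells, with no overlap (1.19 ± 0.12, adjusted p = 0.000326). Gbp2 rose by 1.11 ± 0.11 and Gbp7 by 1.29 ± 0.18. The low-level members Gbp6 (6.87, 12.5 and 6.15 CPM in Adam17-KD cells, against 2.13, 2.29 and 1.97 CPM in control cells) and Gbp9 (3.75, 7.47 and 3.56 CPM, against 1.22, 1.52 and 0.627 CPM) had the largest changes of the family, 1.93 ± 0.22 and 2.11 ± 0.26. Adam17-KD replicate 2 was the highest library for each of Iigp1, Igtp, Gbp3, Gbp6 and Gbp9.

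In the IFIT, IFITM, OAS and MX families 14 of 25 tested genes rose (median 0.53). Oas2, which makes the 2'-5' oligoadenylate that activates RNase L, had 44.6, 70.6 and 32.3 CPM in Adam17-KD cells, against 17.5, 15.5 and 9.85 CPM in control cells (1.74 ± 0.15, adjusted p = 0.000306). Its groups were far apart, and Adam17-KD replicate 2 was again the highest. Mx1 encodes an antiviral dynamin-like GTPase. It had 14.4, 15.7 and 7.79 CPM in Adam17-KD cells, against 3.94, 2.29 and 3.36 CPM in control cells (1.93 ± 0.24, adjusted p = 0.000936). Ifit3 had 26.3, 46.7 and 23.8 CPM in Adam17-KD cells, against 9.93, 9.63 and 11.8 CPM in control cells (1.56 ± 0.19, adjusted p = 0.000933), while Ifit1, which binds RNA lacking cap methylation, rose by only 0.58 ± 0.11 (adjusted p = 0.0123). Oas1b had 14.9, 16.8 and 12.3 CPM in Adam17-KD cells, against 11.1, 9.30 and 9.85 CPM in control cells. The groups did not overlap, but Oas1b was not called (0.52 ± 0.16, adjusted p = 0.0877). The membrane proteins Ifitm2 and Ifitm3, which hinder viral entry, did not share the rise. Ifitm3 had 178, 200 and 355 CPM in Adam17-KD cells, against 246, 252 and 312 CPM in control cells. Its groups overlapped and it was not called (-0.21 ± 0.12, adjusted p = 0.370).

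All 16 tested nucleic acid sensor genes had a positive difference, and 10 were called (median 0.63). Zbp1, a sensor of Z-form nucleic acid, had 36.9, 53.5 and 31.3 CPM in Adam17-KD cells, against 16.4, 10.9 and 13.6 CPM in control cells (1.54 ± 0.19, adjusted p = 0.00083). The lowest Adam17-KD library was well above the highest control. The endosomal receptor of double-stranded RNA Tlr3 rose by 1.17 ± 0.20, Dhx58 by 0.97 ± 0.15 and Ddx58, which encodes RIG-I, by 0.59 ± 0.09. Of 7 ISG15 conjugation genes 5 rose (median 0.87), among them the activating enzyme gene Uba7 (18.9, 26.6 and 11.6 CPM in Adam17-KD cells, against 6.54, 4.03 and 5.46 CPM in control cells; 1.75 ± 0.24, adjusted p = 0.00157) and the protease gene Usp18 (0.87 ± 0.13). Isg15 itself had 174, 193 and 225 CPM in Adam17-KD cells, against 178, 170 and 149 CPM in control cells. The groups overlapped in replicate 1 and Isg15 was not called (0.25 ± 0.12, adjusted p = 0.262). Among interferon-inducible PARP genes and Dtx3l 5 of 6 rose (median 0.84), as did 7 of 11 TRIM genes (median 0.82) and 25 of 38 other interferon-stimulated genes (median 0.75). Lgals9, which encodes galectin-9, was one of these, with 63.8, 94.2 and 78.1 CPM in Adam17-KD cells, against 33.9, 27.5 and 34.6 CPM in control cells (1.28 ± 0.14, adjusted p = 0.000405).

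Genes of the interferon signalling machinery had smaller medians. Of 17 tested JAK-STAT, receptor and SOCS genes 3 rose (median 0.10). Stat2 had 110, 131 and 88.5 CPM in Adam17-KD cells, against 62.0, 65.7 and 49.3 CPM in control cells, with no overlap (0.89 ± 0.10, adjusted p = 0.000382). The kinase gene Tyk2 rose by 0.72 ± 0.16 (adjusted p = 0.0312). The 4 interferon receptor genes lay between 0.03 and 0.26, with a lowest adjusted p of 0.229. Of 10 interferon regulatory factor genes and partners 3 rose (median 0.11). Irf7, which is itself interferon-induced, had 26.7, 29.2 and 30.1 CPM in Adam17-KD cells, against 15.1, 12.3 and 17.2 CPM in control cells (0.95 ± 0.13, adjusted p = 0.00196). Irf1 rose by 0.67 ± 0.10 (adjusted p = 0.00343) and Irf9 by 0.52 ± 0.10 (adjusted p = 0.0153), whereas Irf3, which most cells make constitutively, was not called (0.14 ± 0.12, adjusted p = 0.571). Transcripts of the interferons themselves were hardly detected. None of the 18 ligand genes could be tested, 11 had no count in any library, and the 18 summed to 25 counts in all Adam17-KD libraries and 23 in all control libraries. Ifnb1 had 6 and 5 counts in all, and Ifng none in either group.

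**Figure D3:**
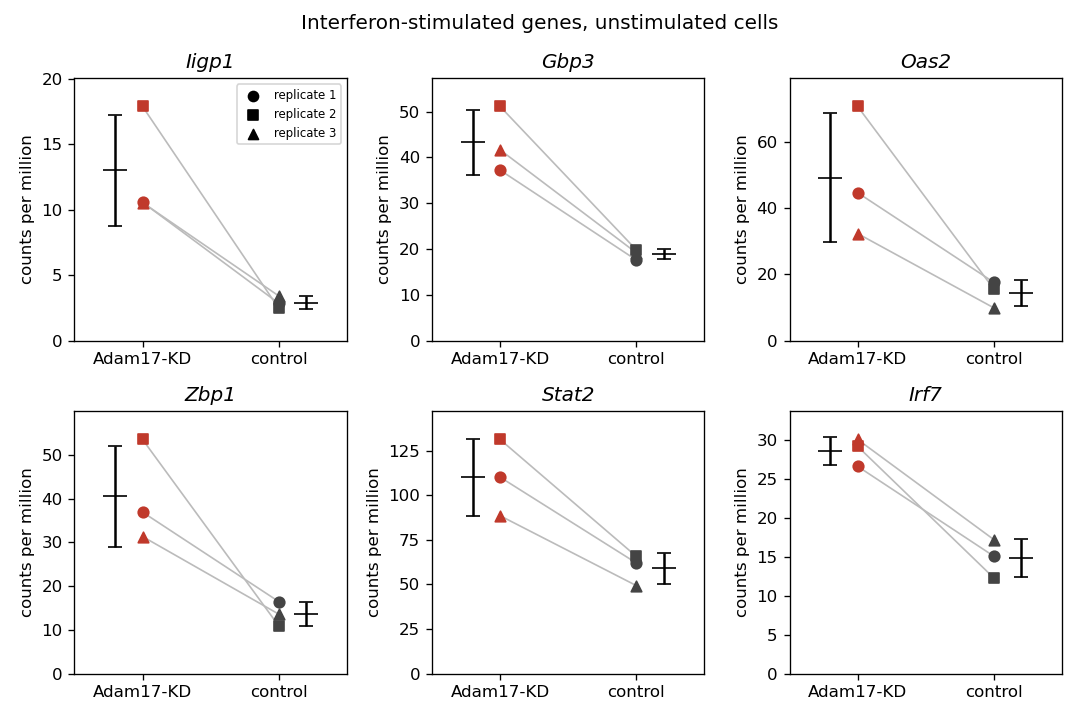
CPM of Iigp1, Gbp3, Oas2, Zbp1, Stat2 and Irf7 in each library, Adam17-KD left and control right. Lines join same-numbered replicates (circle, square and triangle for 1, 2 and 3) and bars are mean ± SD. The groups do not overlap in any of the 6 genes, and Adam17-KD replicate 2 is the highest library in all but Irf7.

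The promoters of these genes were searched for the core of the interferon-stimulated response element, GAAANNGAAA, on either strand. Of the 121 tested genes, 99 had an entry among the RefSeq promoters of GRCm38.p6, with 125 promoters in all. The 250 bases before the start held the core in 47 of these 125, or 37.6% (95% exact Clopper-Pearson interval 29.1 to 46.7, counting error only), and in 978 of all 32851 promoters, or 2.98%. The gamma-activated site TTCNNNGAA was present in 11.2% of the 125 and in 7.02% of all promoters. It reads the same on both strands. The 121 genes were listed as interferon-stimulated whether called or not. The shares over their promoters thus describe the lists and not the knockdown. The same search over all called genes was void, since only 73.7% of the genes called higher and 49.7% of those called lower had a promoter entry. The windows below are shown because they let the called genes be set beside Isg15, which holds the core and was not called. Capitals mark the core on either strand, overlapping cores are joined, and each window is written 5′ to 3′ along the gene. They lie at chr3:142620579-142620638 (plus strand) for Gbp2, chr3:142559974-142560039 (plus) for Gbp3, chr19:34640760-34640838 (plus) for Ifit1, chr19:34583348-34583441 (plus) for Ifit3, chr11:58214888-58214947 (plus) for Irgm2, chr11:58199497-58199555 (plus) for Igtp, chr10:128270251-128270310 (plus) for Stat2 and chr4:156200850-156200921 (minus) for Isg15.
Gbp2: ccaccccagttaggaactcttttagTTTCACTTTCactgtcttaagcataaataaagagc
Gbp3: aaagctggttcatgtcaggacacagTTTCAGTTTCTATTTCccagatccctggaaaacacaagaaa
Ifit1: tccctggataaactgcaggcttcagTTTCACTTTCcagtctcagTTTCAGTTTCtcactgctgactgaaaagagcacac
Ifit3: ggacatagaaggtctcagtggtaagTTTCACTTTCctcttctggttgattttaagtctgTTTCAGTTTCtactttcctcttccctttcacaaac
Irgm2: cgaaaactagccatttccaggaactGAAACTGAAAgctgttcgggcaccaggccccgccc
Igtp: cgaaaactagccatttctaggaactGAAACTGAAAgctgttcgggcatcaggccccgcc
Stat2: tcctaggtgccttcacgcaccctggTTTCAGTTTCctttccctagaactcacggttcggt
Isg15: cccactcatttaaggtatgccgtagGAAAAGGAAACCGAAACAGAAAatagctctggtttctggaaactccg
Isg15 had 3 overlapping cores and a change of 0.25, while Gbp2 and Stat2 with 1 core rose by 1.11 and 0.89. Ifit1 and Ifit3, with 2 cores each, rose by 0.58 and 1.56. The number of cores in the window thus did not order the fold changes of these genes. They are a selection, and only windows with a core are shown. The Irgm2 and Igtp windows are nearly alike.

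Antigen presentation genes were read as 3 lists. Of 14 immunoproteasome, TAP and trimming genes 8 rose (median 0.57, all 14 positive). Psmb8, an immunoproteasome subunit gene, had 87.7, 118 and 119 CPM in Adam17-KD cells, against 60.4, 44.3 and 75.9 CPM in control cells (0.86 ± 0.14, adjusted p = 0.00575). The peptide transporter genes Tap1 and Tap2 rose by 0.54 ± 0.09 and 0.56 ± 0.10, and the aminopeptidase gene Erap1 by 0.64 ± 0.11. Of 17 class I heavy chain genes and B2m 3 rose (median 0.37). The classical chains were not called. H2-K1 had 1004, 1391 and 1282 CPM in Adam17-KD cells, against 904, 1059 and 998 CPM in control cells (0.30 ± 0.11, adjusted p = 0.142), and B2m had 0.26 ± 0.10 (adjusted p = 0.169). Reads of H2 genes may be shared between near-identical copies. None of the 3 tested class II genes was called.

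Chemokine genes moved in both directions, with 2 of 16 tested genes higher and 2 lower. Ccl2, which attracts monocytes, had 25.4, 22.9 and 11.6 CPM in Adam17-KD cells, against 10.8, 3.65 and 9.76 CPM in control cells. The groups only just failed to overlap, and pair 3 differed least (1.31 ± 0.30, adjusted p = 0.0332). Ccl7, a close relative of Ccl2, had 2.21, 2.24 and 1.32 CPM in Adam17-KD cells, against 1.26, 0.653 and 0.985 CPM in control cells, and was not called (0.96 ± 0.33, adjusted p = 0.125). Il16 was the other rise (1.72 ± 0.28, adjusted p = 0.00575). Ccl5, which attracts T cells, had 44.0, 34.9 and 49.8 CPM in Adam17-KD cells, against 74.0, 78.2 and 61.0 CPM in control cells (-0.73 ± 0.14, adjusted p = 0.013). Cxcl10, a ligand of CXCR3 and a known interferon target, was lower too, with 254, 221 and 301 CPM in Adam17-KD cells, against 360, 338 and 344 CPM in control cells (-0.44 ± 0.11, adjusted p = 0.0412). Both chemokine genes thus went against the direction of the interferon-stimulated lists. In the NF-kB list 1 of 15 genes rose (Nfkbie, 0.68 ± 0.14) and 1 fell (Nfkbib, -0.43 ± 0.10).

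Among 20 tested genes of shed surface proteins outside the EGF family, 3 rose (15%, against 2.07% of all tested genes). None fell (median 0.10), and the list is not limited to substrates of ADAM17. The adhesion molecule gene Vcam1 had 235, 213 and 201 CPM in Adam17-KD cells, against 151, 111 and 147 CPM in control cells (0.68 ± 0.11, adjusted p = 0.00415). Every Adam17-KD library was above every control. Il6ra rose by 0.84 ± 0.16 (adjusted p = 0.0144) and the TNF receptor gene Tnfrsf1b by 0.59 ± 0.11 (adjusted p = 0.00964). Transcript counts hold no information on how much of these proteins stayed on the surface.

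Extracellular matrix genes were read as 4 lists, in which most members were not called, apart from the proteoglycans. Of 23 tested collagen genes 7 rose (30.4%, against 2.07% of all tested genes) and none fell (median 0.29). Col3a1 had 879, 638 and 589 CPM in Adam17-KD cells, against 341, 232 and 440 CPM in control cells (1.08 ± 0.16, adjusted p = 0.00312). Col6a1, a chain of the beaded-filament collagen, had 728, 652 and 548 CPM in Adam17-KD cells, against 357, 246 and 349 CPM in control cells (1.03 ± 0.13, adjusted p = 0.000933). The groups did not overlap in either gene. The list was uneven between pairs, with medians of 0.56 and 0.53 in pairs 1 and 2 and -0.04 in pair 3. Of 5 small leucine-rich proteoglycan genes 4 rose (median 1.36). Ogn, which encodes osteoglycin, had 89.1, 84.5 and 64.7 CPM in Adam17-KD cells, against 36.8, 22.1 and 34.3 CPM in control cells (1.36 ± 0.15, adjusted p = 0.000495). Its neighbours on chromosome 13, Aspn and Omd, rose by 2.46 ± 0.43 and 1.71 ± 0.39 from low levels, and Bgn by 1.22 ± 0.30, while Dcn was not called (0.41 ± 0.16, adjusted p = 0.180).

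Among 22 other matrix glycoprotein genes 5 rose and 1 fell (median 0.22). Spon2, a secreted spondin, had 2.04, 3.85 and 2.78 CPM in Adam17-KD cells, against 0.473, 0.109 and 0.895 CPM in control cells. This was the largest rise by the rule for named genes (2.48 ± 0.44, adjusted p = 0.00831). Mgp, an inhibitor of calcification, rose by 2.20 ± 0.39 and Sned1 by 1.91 ± 0.21. Tnc, which encodes the tenascin of wounds and tumour stroma, went the other way and was the largest fall. It had 0.397, 0.402 and 0.638 CPM in Adam17-KD cells, against 0.946, 1.85 and 1.79 CPM in control cells (-1.63 ± 0.36, adjusted p = 0.0285). Of 24 matrix protease and crosslinking genes 2 rose (Mmp9, 0.92 ± 0.23, and Loxl3, 0.57 ± 0.14) and 1 fell (Mmp19, -0.74 ± 0.18, with overlapping groups). Of 11 tested mesenchymal markers 4 rose, Col1a2 (0.79 ± 0.09), Col3a1, Pdgfra (0.80 ± 0.14) and Pdgfrb (0.62 ± 0.13), while Vim did not (-0.07 ± 0.12, adjusted p = 0.798). The other markers, 7 with Vim, were not called, and 3 of the 11 had a negative difference. Col1a1, the partner chain of Col1a2, had 151 counts in all Adam17-KD libraries and 210 in all control libraries. In bulk RNA a larger share of matrix-producing cells and more RNA per cell cannot be told apart.

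**Figure D4:**
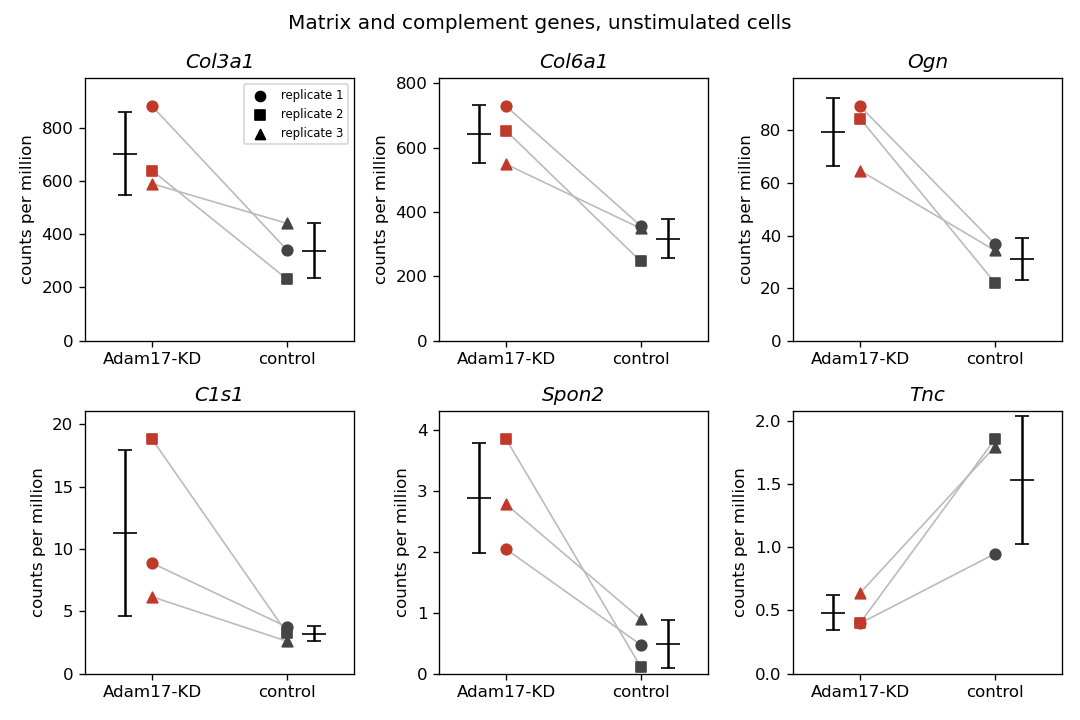
CPM of Col3a1, Col6a1, Ogn, C1s1, Spon2 and Tnc in each library, Adam17-KD left and control right. Lines join same-numbered replicates (circle, square and triangle for 1, 2 and 3) and bars are mean ± SD. All Adam17-KD libraries lie above all controls in the first 5 genes and below them in Tnc.

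Of 10 tested complement genes 4 rose (40%, against 2.07% of all tested genes) and none fell (median 0.97). C1s1 encodes a protease of the classical pathway. It had 8.85, 18.8 and 6.15 CPM in Adam17-KD cells, against 3.75, 3.26 and 2.60 CPM in control cells (1.68 ± 0.25, adjusted p = 0.00256). The groups did not overlap, and Adam17-KD replicate 2 was by far the highest. C1ra, whose product activates C1s, rose by 1.00 ± 0.20 and its relative C1rl by 1.54 ± 0.33. Further large rises were Dhrs3, a retinal reductase gene (2.22 ± 0.35), Apod, a lipocalin gene (2.13 ± 0.36), Wisp2 (2.04 ± 0.26) and the Ly6 surface protein genes Ly6c1 (2.01 ± 0.40) and Ly6a (1.57 ± 0.18), of 3 Ly6 genes tested. Dhrs3 was the only one of 16 tested retinoid genes to be called.

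Outside the EGF, ERK and ribosomal lists, at most 2 members of any list fell. Both prostaglandin synthase genes of the cyclooxygenase step fell, the only 2 of 7 tested in their pathway. Ptgs2 had 230, 216 and 189 CPM in Adam17-KD cells, against 315, 381 and 314 CPM in control cells (-0.67 ± 0.10, adjusted p = 0.00333). Ptgs1 had 2.61, 2.64 and 2.37 CPM in Adam17-KD cells, against 5.52, 5.33 and 5.28 CPM in control cells (-1.08 ± 0.21, adjusted p = 0.0141). The libraries within each group were close together for Ptgs1 and the groups were apart for both genes. Of 32 genes of the unfolded protein and integrated stress response 2 fell (median -0.13), Fgf21 (-1.37 ± 0.34) and Ppp1r15a (-0.45 ± 0.11). Gdf15, a stress cytokine gene, was the 1 of 24 p53 targets to fall (-1.48 ± 0.34, adjusted p = 0.0358). The replication protein gene Rpa3 had 39.2, 30.6 and 40.9 CPM in Adam17-KD cells, against 52.7, 88.8 and 75.1 CPM in control cells, and was the only 1 of 40 replication and cell cycle genes to be called (-0.94 ± 0.16, adjusted p = 0.00673).

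Cytosolic ribosomal protein genes showed small differences, most of them of 1 sign. Of 73 tested, 70 had a negative difference, 8 were called lower (0.997% of all tested genes) and none higher (median -0.29). The pair medians were -0.54, -0.21 and -0.15, and 47 of the 73 were lower in all 3 pairs (20.1% of all tested genes). Rps29 had 100.2, 91.2 and 118 CPM in Adam17-KD cells, against 140.5, 126 and 156 CPM in control cells (-0.45 ± 0.09, adjusted p = 0.0189). Adam17-KD replicate 3 was the nearest to the controls. None of the 8 was called without the pairing. Without replicate pair 3, a setting chosen after the data had been seen, 26 of the list were called lower. That fit called more genes lower in general, 635 of 14247 tested, against 143 of 14339 with all 3 pairs. Another 15 of the 143 genes called lower were ribosomal protein pseudogenes, whose reads may come from the genes themselves. The share of mitochondrial counts was higher in each Adam17-KD library than in its own control, and its part in this difference was not tested. No gene was called among 24 genes of cholesterol synthesis and uptake (median 0.11) and 6 of nitric oxide synthesis and its cofactor supply. Nos2, the inducible synthase gene, had 10 counts in all Adam17-KD libraries and 15 in all control libraries and could not be tested. The reference genes Eef2 (-0.19 ± 0.12, adjusted p = 0.422) and Polr2b (0.13 ± 0.11, adjusted p = 0.581) were not called.

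**Figure D5:**
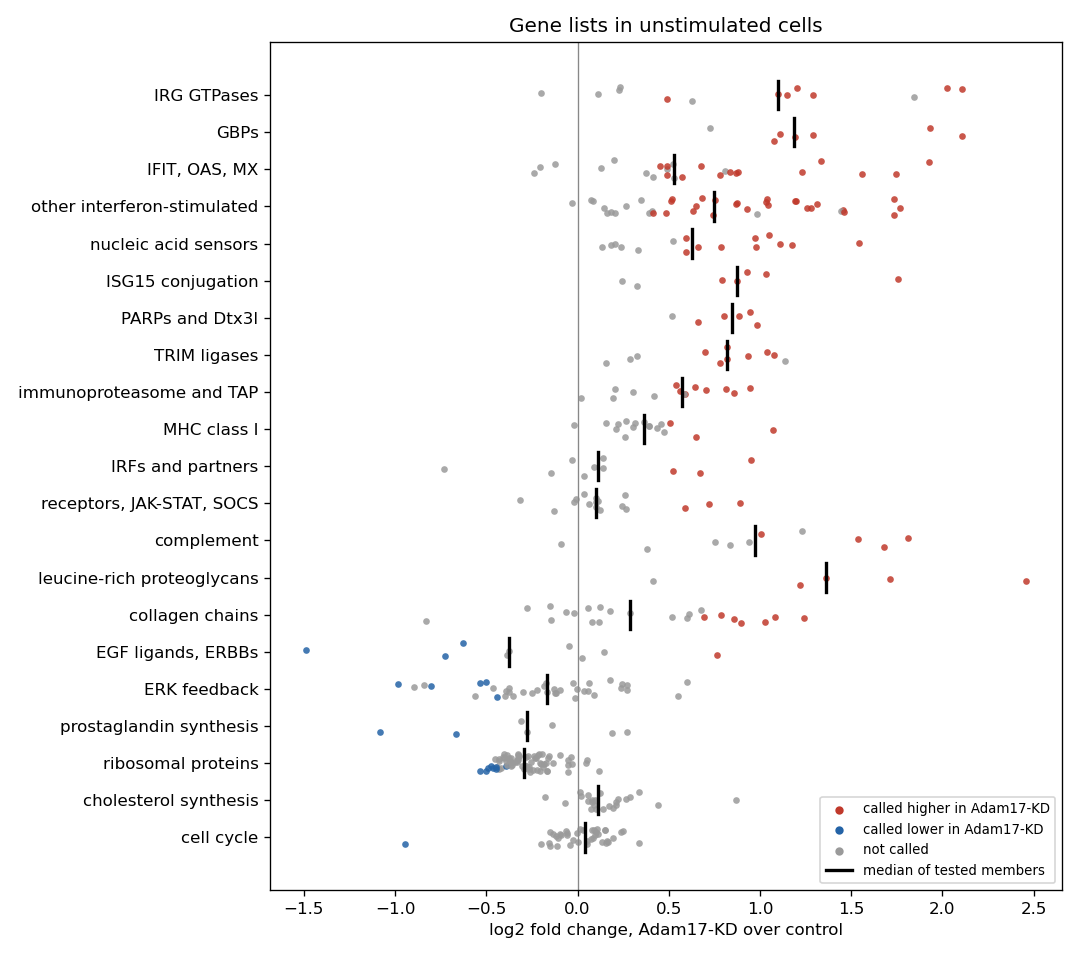
Log2 fold change of Adam17-KD over control for each tested member of 21 gene lists (rows). Points are genes, coloured by the call (red higher, blue lower, grey not called), and the black mark is the list's median. The interferon-stimulated, proteoglycan and complement lists have medians to the right of 0, up to 1.36, and the EGF receptor, ERK and ribosomal lists have medians to the left, with members on both sides.

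The knockdown effects without and with IL1β plus IFNγ do not share libraries, and their difference was tested as an interaction over all 12. Of 14673 genes tested, edgeR called none (0%), with 368 at an unadjusted p under 0.05 and a lowest adjusted p of 0.417, and DESeq2 called 15. Of the 15, 13 had a negative interaction (effect with cytokines minus effect without), 11 were in the interferon-stimulated lists and another was Stat2. Over the 121 interferon-stimulated genes the pair medians with cytokines were 0.25, 0.25 and 0.27, next to 0.70, 0.94 and 0.60 without. Iigp1 had an interaction of -1.64 ± 0.27 (adjusted p = 0.454 in edgeR and 3.55e-05 in DESeq2). Gbp2 stood at 6214 CPM in Adam17-KD and 4896 CPM in control cells after cytokines, against 58.7 CPM in Adam17-KD and 27.4 CPM in control cells without (mean CPM, scaled over all 12 libraries), so the smaller difference lay on a far higher level. The fall of Adam17 had an interaction of -0.07 ± 0.13. That of Areg had 0.48 ± 0.26, with pair differences of -1.15, -0.72 and -1.23 with cytokines, next to a change of -1.49 without. Aspn was higher in all 3 pairs with cytokines as well, by 2.54, 3.90 and 1.56, with an interaction of 0.26 ± 0.87. Of the genes called higher without cytokines, 289 of 295 had a positive mean pair difference with them. Of those called lower, 121 of 143 had a negative one. The same shares over all tested genes were not taken, so these counts are a description only. No gene passing the filter on low counts was shown by edgeR to have an effect particular to unstimulated cells, while the same test with no filter called 22.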

How the data were processed

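Poly(A)+ RNA of 12 MC38CEA cultures was sequenced from Ion Total RNA-Seq libraries. The build was mm10 per the submitters' processing notes. The aligner, counter and annotation are not given in the sources used here. The authors deposited raw counts of reads per gene as whole numbers, not normalized. They also deposited tables of their own comparisons (mean signal, log2 fold changes, ratios, p-values), which were not used. Excluded were 2 lines whose gene names had become dates (0.00808% of counts).

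The 6 unstimulated libraries were filtered by filterByExpr, scaled by TMM and fitted in edgeR 4.0.16 (R 4.3.3) by glmQLFit and glmQLFTest with the replicate number as a block. Same-numbered libraries were taken as pairs by the definition of the comparison, and the labels give only the replicate numbers. As a description, the deviations of same-numbered libraries from their group means correlated at 0.233, 0.286 and 0.472. Those of libraries with unlike numbers correlated at -0.293 to 0.0804. Deviations within a group are tied by their mean, so these values are not independent. The fit left 2 residual degrees of freedom, moderated by a prior of 11.5. The interaction used all 12 libraries. Alternatives were no block, all 12 libraries, RLE scaling, other filters, DESeq2 1.42.0, limma-voom (limma 3.58.1) and leaving out each library. Scripts were tested on simulated data.

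Named were Adam17, Adam10, the genes followed by RT-qPCR and the reference genes. Added were the 15 largest called rises and falls with a mean of at least 20 counts and no overlap, and up to 5 members of each of 40 lists, with defining family members. Predicted genes were counted, not named, and certain others are left unreported. Samples were grouped by their labels. The members, lists and rules were chosen with earlier results of these data known. Positions are from GENCODE M21 (GRCm38), matched by symbol, and promoters from RefSeq (GRCm38.p6).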

Additional observations from a re-analysis of the deposited data

Results flagged for a closer look

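The chemokine gene Ccl5 differed in direction between the conditions. Without cytokines it was lower in Adam17-KD than in control cells in all 3 pairs (-0.73 ± 0.14 on the log2 scale, adjusted p = 0.013 in edgeR). With IL1β and IFNγ it was higher in all 3 pairs, by 0.42, 0.25 and 0.18, with a mean of 0.283. The interaction was 1.04 ± 0.21, with an adjusted p of 0.799 in edgeR and 0.00964 in DESeq2, so the call of a difference rests on DESeq2.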

How the results depend on the processing

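The counts of calls moved far more than the fold changes. Against the 440 genes called (297 higher, 143 lower, 78 of the interferon-stimulated genes), the fit with no replicate block called 50, 45, 5 and 28, and the 50 were all among the 440. A fit of all 12 libraries with the block called 130 (111 higher, 19 lower), of which 128 were among the 440. The same fit with no block called 69, 63, 6 and 35. With no filter on low counts 27367 genes were tested and 1143 were called, 558 higher and 585 lower, and the 440 were all among them. A minimum mean of 50 counts left 82 lower, and DESeq2 with the block called 244 lower. RLE scaling and limma-voom stayed within 1.5 times each count. Over all fits that left out 1 library, with or without the block, 0 to 1228 genes were called, 0 to 571 higher, 0 to 657 lower and 0 to 87 of the interferon-stimulated genes. Those with no block called 0 without control replicate 1, control replicate 2 or Adam17-KD replicate 2, where 994, 1707 and 733 genes had an unadjusted p under 0.05, and 548 without Adam17-KD replicate 3. Leaving out replicate pair 3, a setting chosen after the data had been seen, gave 1148 calls (513 higher, 635 lower), 415 of them among the 440. With the block, a fit without 1 library of this pair rests on the same remaining pairs. The log2 change of Adam17 was -0.82 to -0.62 over the fits without 1 library. It was not called in 5 of the 6 without the block, at an adjusted p of 0.109 to 0.161. The interaction had 0 calls in edgeR with or without the block, 15 in DESeq2 and 22 in edgeR with no filter.

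The sign turned for 5 values, none of them a called gene. Over the fits without 1 library the change of Adam10 was -0.15 to 0.18, that of Polr2b -0.035 to 0.27, that of Ifitm3 -0.52 to 0.029, the median of the interferon regulatory factors -0.0038 to 0.21 and that of the EGF receptor list -0.51 to 0.013. The cause was not tested. With 3 libraries per group and 17031942 to 25443307 counts per library, genes of a few counts per library were the least precise.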

Other observations

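Several genes with large changes belonged to none of the lists described above. Serpinb1a, an inhibitor of neutrophil proteases, had 3.80, 3.73 and 2.01 CPM in Adam17-KD cells, against 1.02, 1.20 and 0.582 CPM in control cells (1.77 ± 0.27, adjusted p = 0.00343). The groups did not overlap. Among the falls, Dynap had 1.70, 1.03 and 2.14 CPM in Adam17-KD cells, against 3.86, 4.62 and 5.33 CPM in control cells (-1.50 ± 0.26, adjusted p = 0.00673). Car6, a secreted carbonic anhydrase gene, had 84.5, 137 and 138 CPM in Adam17-KD cells, against 184, 295 and 138 CPM in control cells (-0.74 ± 0.17, adjusted p = 0.0351), so its fall rested on pairs 1 and 2. Thsd7a (-1.27 ± 0.31), Cfap58 (-1.06 ± 0.21) and Mamdc2 (-1.01 ± 0.25) fell as well.

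Over chromosomes the median log2 fold change was between -0.05 and 0.06. Chromosome 12, which holds Adam17, had 14 of its 454 tested genes called lower (3.08%, against 0.997% of all tested genes) and 2 called higher. The tested genes nearest to Adam17 were not among them. This count was noticed in the data and was not tested.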
